A study of Caenorhabditis elegans with 83 samples.

Results

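The HDA-1 sites described here are the peaks that CUT&RUN gave for HDA-1 in day 1 adult Caenorhabditis elegans with an intact germline, in control worms and in hcf-1(pk924) mutants. CUT&RUN directs a nuclease with an antibody, so that the DNA next to a bound protein is cut out and sequenced. A peak was counted once per interval, and a control peak was called kept if a mutant peak overlapped it by 1 bp or more, absent if none did, and a mutant peak was called new if it overlapped no control peak. The control list held 8253 peaks and the mutant list 7679, together 15932 of the 201446 peaks in the 22 lists of the series. Of the control peaks 6418 were kept and 1835 were absent, and 1084 mutant peaks were new.

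Both groups carried hda-1::gfp::ha (allele syb5185), a tag put by CRISPR at the C-terminal end of the endogenous gene, and an antibody to HA was used to profile HDA-1. The controls were strain IU723, with the tag alone, and the mutants were strain IU725, with hcf-1(pk924) and the tag. Each genotype was thus represented by a single strain, and hermaphrodites of both were fed bacteria with the empty RNAi vector L4440 and held somatic and germline cells. HDA-1 and histone H3 were each profiled in 2 biological replicates per genotype, 8 of the 83 samples of the series. The peak lists hold no expression values, so the presence of a germline and the loss of HCF-1 were taken from the labels.

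HDA-1 removes acetyl groups from histones as a class I deacetylase, the worm counterpart of mammalian HDAC1 and HDAC2, and acts in complexes such as NuRD and SIN3. HCF-1 is the counterpart of human host cell factor, a chromatin scaffold with no enzyme activity of its own, and its loss lengthens the life of the worm. The comparison asks whether HDA-1 needs HCF-1 to occupy its sites when the germline is present.

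The authors pooled the replicates of a genotype before calling its peaks, so the values below have no replicate error and the genotypes could not be tested against each other. The merged HDA-1 samples held 71.5 M tags in controls and 67.8 M in mutants, and the matching H3 samples 62.7 M and 62.0 M. The fold of a peak is the authors' ratio of the HDA-1 pileup at its summit to the local background from H3 of the same genotype, and its −log10 q comes from the authors' test of that summit. Intervals given with shares are exact (Clopper-Pearson) at 95% over peaks or genes. They cover counting error only.

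To show the DNA at strong members of each class, the following windows (WBcel235, forward strand) hold the summit and 50 bases on each side. They were taken at kept, absent and new peaks near a gene with a symbol and outside exons, in order of −log10 q. Not every chromosome is represented, so a stronger peak can be missing. The absent peak near sin-3 (−log10 q 59.55) is not shown, although it ranked above that near xrn-1 (53.2). The windows are 3 of each class and do not stand for its other members. Capitals mark a GA repeat (GAGAGA, or TCTCTC on the other strand), an ETS site (CCGGAA, or TTCCGG), or a run of 15 bases that the windows near vha-19 and age-1 share.
vha-19, kept, chrIV:3366870-3366970: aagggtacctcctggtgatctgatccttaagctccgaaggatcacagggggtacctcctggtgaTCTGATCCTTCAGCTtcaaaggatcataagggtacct
bet-2, kept, chrX:10568739-10568839: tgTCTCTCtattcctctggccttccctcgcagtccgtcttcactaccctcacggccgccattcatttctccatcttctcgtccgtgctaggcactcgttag
age-1, kept, chrII:11528112-11528212: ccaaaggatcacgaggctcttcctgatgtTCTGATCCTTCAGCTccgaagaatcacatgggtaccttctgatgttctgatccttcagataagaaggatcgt
cul-5, absent, chrV:10178298-10178398: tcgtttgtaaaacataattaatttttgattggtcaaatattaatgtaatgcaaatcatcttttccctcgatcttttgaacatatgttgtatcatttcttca
trd-1, absent, chrIII:7386719-7386819: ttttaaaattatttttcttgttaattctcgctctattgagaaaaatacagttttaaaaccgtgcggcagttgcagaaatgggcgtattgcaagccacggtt
xrn-1, absent, chrII:14066807-14066907: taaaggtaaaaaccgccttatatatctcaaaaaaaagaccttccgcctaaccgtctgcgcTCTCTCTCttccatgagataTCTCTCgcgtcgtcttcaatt
sre-47, new, chrII:13985181-13985281: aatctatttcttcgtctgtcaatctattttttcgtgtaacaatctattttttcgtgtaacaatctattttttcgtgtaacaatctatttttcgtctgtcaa
col-84, new, chrII:11867747-11867847: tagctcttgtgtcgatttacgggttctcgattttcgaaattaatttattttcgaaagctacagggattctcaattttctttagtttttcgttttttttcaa
lmbr-1, new, chrIII:8371772-8371872: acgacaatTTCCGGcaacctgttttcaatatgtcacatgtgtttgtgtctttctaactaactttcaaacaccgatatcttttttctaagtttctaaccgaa

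Among the kept windows, that near bet-2, which encodes a BET family bromodomain protein, was rich in G and C (55.4%) and lay 484 bp upstream of the gene start, where HDA-1 stood 24.6-fold over H3 in controls and 20.6-fold in mutants. The windows near vha-19, an accessory subunit of the vacuolar proton pump, and age-1, the PI3 kinase of the insulin pathway, were copies of a repeat, and the vha-19 window matched itself at 80% of bases when shifted by 46 bases. The shared run TCTGATCCTTCAGCT occurred 171 times on the chromosomes and lay in 38 of the control peaks (0.460%), of which 37 were kept. In these 38 peaks the median fold was 4.88 in controls and 4.73 in the mutant peaks over those kept. Of all control peaks 77.8% were kept, and of the strongest quintile by −log10 q 99.8%. The implied local background of the 38 had a median of 1.41 times the median of control peaks and reached 30.8 times. The set-26(tm2467) list of worms on L4440, which shares these controls, had a peak over 38 of the 38 with a median fold of 19.1. It had a peak over 39.3% of all control peaks. Of the same 38 intervals, 14 held a peak in controls on glp-1 RNAi, which removes the germline, with a median fold of 1.88, and 32 did in the mutants on that RNAi, with a median fold of 3.61. Of all control peaks, 94.6% held a peak in those glp-1 RNAi controls and 89.2% in those mutants. How the reads of such copies were placed was not tested.

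The strongest absent window, 1187 bp upstream of cul-5 (a cullin of ubiquitin ligases), held 25.7% G and C and none of the motifs searched. The strongest new window, near the chemoreceptor gene sre-47, was a tandem repeat that matched itself at 84.0% when shifted by 20 bases. Its mutant pileup was 3501 and its fold 1.45, with an implied local background of 17.2 times the median of control peaks. The new peak near the cuticle collagen gene col-84 was of another kind, with a fold of 3.13 at ordinary background (0.989 times that median).

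Most HDA-1 peaks of controls were also called in hcf-1(pk924) mutants. The kept share was 77.8% of control peaks (95% interval 76.9 to 78.7) and the new share was 14.1% of mutant peaks (13.3 to 14.9). The mutant list was 0.930 times as long as the control list (0.902 to 0.960). Of the kept peaks 97.4% had a mutant summit inside the control interval, 297 lay under more than 1 mutant peak, and 168 mutant peaks covered more than 1 control peak.

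Absent and new peaks were the weak ones of their lists. The median fold was 2.12 in kept peaks, 1.56 in absent peaks and 1.54 in new peaks, and the median −log10 q was 29.96, 8.01 and 7.54. Kept peaks were also wider, with a median of 466 bp against 273 bp for absent and 259 bp for new peaks. A fold of 3 or more was reached by 1482 kept peaks but by 1 absent and 1 new peak. Absent peaks held 552 kb of the 4361 kb under all control peaks (new peaks 306 kb of 3770 kb in mutants). A mutant peak lay within 500 bp of 21.3% of absent peaks, and the median distance to the nearest one was 2088 bp.

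When control peaks were divided into 5 equal groups (quintiles) by −log10 q, the kept share was 42.5% in the weakest quintile, 63.5% in the second, 85.6% in the third, 97.5% in the fourth and 99.8% in the strongest (1647 of 1650). The new share of mutant peaks ran the other way, from 37.7% in the weakest quintile of the mutant list to 0.391% (6 of 1535) in the strongest. No interval of a quintile overlapped that of its neighbour in the kept shares. The new share depended on how peaks were chosen. It was 6.53% with a fold of at least 3 in both lists, and 6.68% among mutant peaks that also overlapped an HDA-1 peak called against antibody background in wild type worms.

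**Figure D1:**
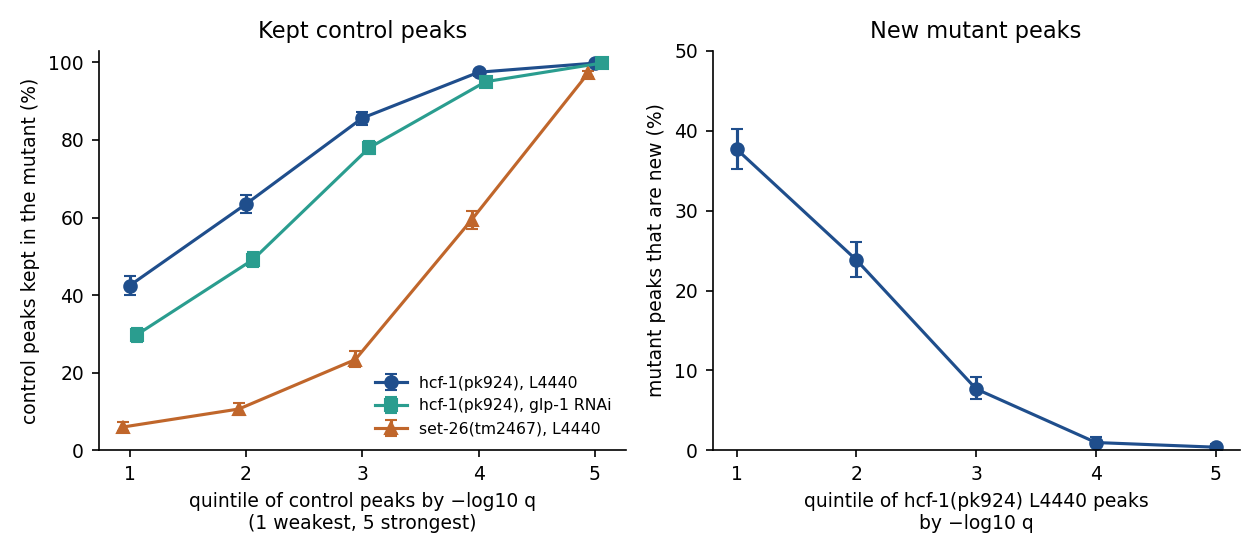
Left, share of control HDA-1 peaks (%) overlapped by a mutant peak in each quintile of the control list by −log10 q, for hcf-1(pk924) on L4440 (circles), hcf-1(pk924) on glp-1 RNAi (squares, own controls) and set-26(tm2467) on L4440 (triangles). Right, share of hcf-1(pk924) L4440 peaks (%) that are new in each quintile of the mutant list. Bars are exact 95% intervals. The L4440 hcf-1 shares climb from 42.5% to 99.8% and the new shares drop from 37.7% to 0.391%.

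The other mutant profiled with the same controls, set-26(tm2467), kept 39.3% of control peaks (3245 of 8253), with 5.996% kept in the weakest quintile, 59.4% in the fourth and 97.2% in the strongest. Its list held 3741 peaks, 0.453 times the control number, from 64.5 M HDA-1 tags. On glp-1 RNAi, with samples of their own, hcf-1(pk924) mutants kept 70.4% of 12044 control peaks, with 29.8% in the weakest quintile and 99.8% in the strongest, and 10.2% of their 10316 peaks were new. These values stand side by side and the differences between them were not tested.

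In kept peaks the fold was slightly lower in mutants. The median log2 ratio of mutant to control fold was −0.09 (quartiles −0.26 and 0.08), and it was below 0 in 4118 of 6418 kept peaks (64.2%). The pileup at the summit, which is scaled to nearly the same number of H3 tags in both lists, gave a median of −0.09 as well. Since the fold is this pileup over the background, the pileup is not an independent check of it. By quintiles of the control list the median ran from 0.14 in the weakest to −0.19 in the strongest. By quintiles of the mutant list it ran from −0.20 in the weakest to −0.09 in the strongest, so the median of the strongest peaks was below 0 whichever list ranked them, while the sign at the weak end turned with the ranking.

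Changes beyond 2-fold were rare. The ratio was below −1 in 8 kept peaks and above 1 in 29. When the mutant value was taken from the highest mutant summit inside the control interval, 8 peaks were again below −1 and 0 of 6251 were above 1. Among the strongest quintile, the kept peaks near a gene with a symbol that had the lowest ratios lay 63 bp upstream of imb-1, an importin beta (4.76-fold in controls, 2.24-fold in mutants), near exc-14 (3.72 and 1.54), and over the near-identical genes pud-1.1 (3.97 and 1.90) and pud-1.2 (3.66 and 1.76), whose reads may be shared. In glp-1 RNAi worms the imb-1 interval was 5.21-fold over H3 in controls and 3.87-fold in hcf-1 mutants, and the exc-14 interval 5.24 and 2.49. At the other end were madd-3, a LAMMER kinase (4.30 and 6.48), cls-2, a microtubule-binding CLASP protein (3.98 and 5.65), and tatn-1, tyrosine aminotransferase (3.40 and 4.82). The peak near lgg-1, an ATG8 protein of autophagy, had the highest ratio (1.26). Its mutant interval was 4095 bp wide with the main summit elsewhere, and inside the control interval the folds were 2.94 and 2.87.

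**Figure D2:**
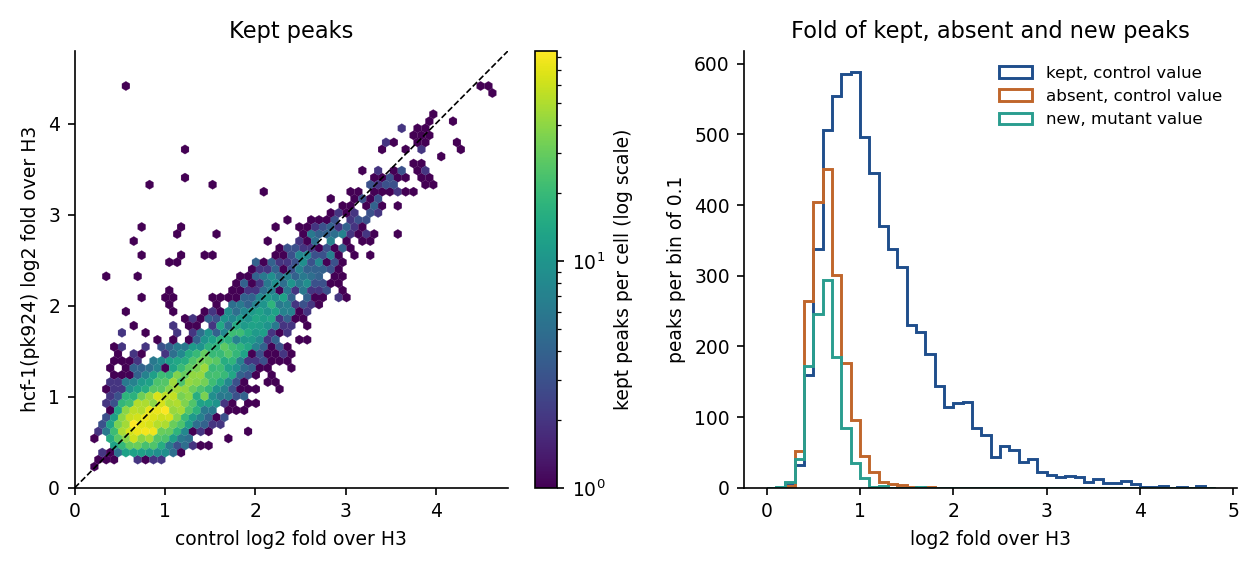
Left, log2 fold over H3 of the 6418 kept peaks in controls (x) and of the strongest overlapping mutant peak (y), coloured by the number of peaks per cell on a log scale, with the line of equality dashed. Right, counts of kept (control value), absent (control value) and new (mutant value) peaks per 0.1 of log2 fold. Most kept peaks lie along the line, the 29 that lie more than 1 above it take their value from a mutant summit outside the control interval, and absent and new peaks gather at low fold.

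The strongest kept peaks near genes with a symbol covered regulators of several kinds. hlh-11, a bHLH repressor of fat breakdown genes, had a fold of 18.8 in controls and 12.9 in mutants. hmg-1.2, an HMG box protein, had 16.96 and 12.8, mtm-3, a myotubularin lipid phosphatase, 15.4 and 10.3, and aagr-3, an acid glucosidase relative, 14.8 and 10.1. sup-26, an RNA-binding protein, had 14.2 and 14.5. Of the 8 named by strength, 5 were lower in mutants and 3 (vha-19, age-1 and sup-26) were higher. The windows near vha-19 and age-1 were the repeat copies above, and the implied local background at age-1 was 4.70 times the median of control peaks.

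The strongest absent peaks had control folds of 2.38 to 3.34. After cul-5 (3.34) and trd-1 (2.71) came sin-3, the scaffold of the SIN3 deacetylase complex (2.70), xrn-1, an exoribonuclease (2.59), epg-6, an autophagy protein (2.49), nsun-1, an RNA methyltransferase (2.46), mec-10, a touch receptor channel subunit (2.39), and nefr-1 (2.38). In the glp-1 RNAi list of hcf-1 mutants, a peak lay over 6 of these 8, among them cul-5 (2.51-fold, against 5.52 in the glp-1 RNAi controls) and sin-3 (2.98 against 3.40). The epg-6 and nefr-1 intervals had none. The strongest new peaks after sre-47 and col-84 had mutant folds of 2.01 to 2.22 and lay near lmbr-1, gars-1 (glycyl-tRNA synthetase), gpdh-2 (glycerol-3-phosphate dehydrogenase), chd-7 (a chromodomain helicase), spe-15 (a myosin needed in sperm formation) and sod-3, the mitochondrial superoxide dismutase that is a DAF-16 target. spe-15 also had another peak that was kept (3.69 in controls, 2.73 in mutants). The sod-3 interval held a peak in both glp-1 RNAi lists (2.54 in controls, 1.78 in mutants), so it was new on L4440 alone. The col-84 interval held one in glp-1 RNAi hcf-1 mutants (3.93) and none in their controls.

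Peaks of other HDA-1 samples gave an outside view of the 3 classes. In wild type worms on OP50 bacteria, profiled against antibody background, HDA-1 had a peak over 90.6% of kept, 50.6% of absent and 39.5% of new peaks. Within the weakest quintile of the control list the share was 64.9% for kept (455 of 701) and 41.5% for absent peaks (394 of 950), so the order was the same among weak peaks. The glp-1 RNAi control list covered 97.3% of kept, 85.1% of absent and 77.4% of new peaks. Only 9.05% of absent and 12.5% of new peaks, and 0.436% of kept peaks, lay in none of these lists nor in the glp-1 RNAi list of the mutants.

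The glp-1 RNAi samples also allowed a second look at the loss. Of control peaks present in the glp-1 RNAi controls, the mutants on glp-1 RNAi had a peak over 97.7% of those kept on L4440 and over 70.3% of those absent on L4440. In the weakest quintile these shares were 91.9% (603 of 656) and 66.1% (506 of 766). Of all 12044 glp-1 RNAi control peaks 70.4% were kept. That share counts intervals of the glp-1 RNAi list, with or without a peak on L4440, so it is no base for the shares above. Peak strength in the glp-1 RNAi list was not matched. Of the new peaks, 666 (61.4%) lay in both glp-1 RNAi lists and 9.32% in that of the hcf-1 mutants but not of the controls.

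Since the allele removes HCF-1, sites with and without an HCF-1 peak were set side by side, using the HCF-1 list of control worms on L4440 from other samples. Of control HDA-1 peaks 3662 (44.4%) overlapped an HCF-1 peak, and these were kept in 84.5% of cases against 72.4% for the other 4591, a difference of 12.1 percentage points (95% interval 10.3 to 13.8). HDA-1 peaks over HCF-1 peaks were stronger, with a median −log10 q of 39.5 against 14.5. Within the quintiles the difference was −2.28, 0.257, −3.66, −1.78 and 0.104 points from the weakest to the strongest, with a mean of −1.47. In 3 of the 5 quintiles the interval of the difference included 0. In the third (−7.42 to −0.05) and the fourth (−3.42 to −0.19) it lay below 0. With the HCF-1 list of wild type worms on OP50 the mean within quintiles was 0.260 points, so the sign of the mean was not the same with both HCF-1 lists. The median log2 fold ratio of kept peaks was −0.14 with and −0.05 without an HCF-1 peak, and −0.19 and −0.17 in the strongest quintile.

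The new share was lower over HCF-1 peaks at like strength. An HCF-1 peak lay under 48.2% of kept, 31.0% of absent and 15.4% of new peaks. In the weakest quintile of the mutant list, 21.2% of the peaks over an HCF-1 peak were new (84 of 397, interval 17.2 to 25.5), against 43.5% of those without (495 of 1139, 40.6 to 46.4). In the second quintile the shares were 12.4% and 28.7%, and in the third 3.40% and 10.3%, with intervals that did not overlap. The same split of the hcf-1 list on glp-1 RNAi gave 16.8% and 30.4% in its weakest quintile and 7.64% and 17.8% in the second. The direction was shared by peaks of SET-26, a chromatin reader that works with HCF-1. In the weakest quintile 26.1% of mutant HDA-1 peaks over a SET-26 peak were new and 43.5% of the rest, and with the SET-26 list of hcf-1(pk924) mutants 29.0% and 42.2%. A split in this direction was also seen with the HDA-1 list of wild type worms on OP50 (22.9% and 58.7%). That list is of HDA-1 itself in worms without the mutation, so it does not bear on other factors.

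**Figure D3:**
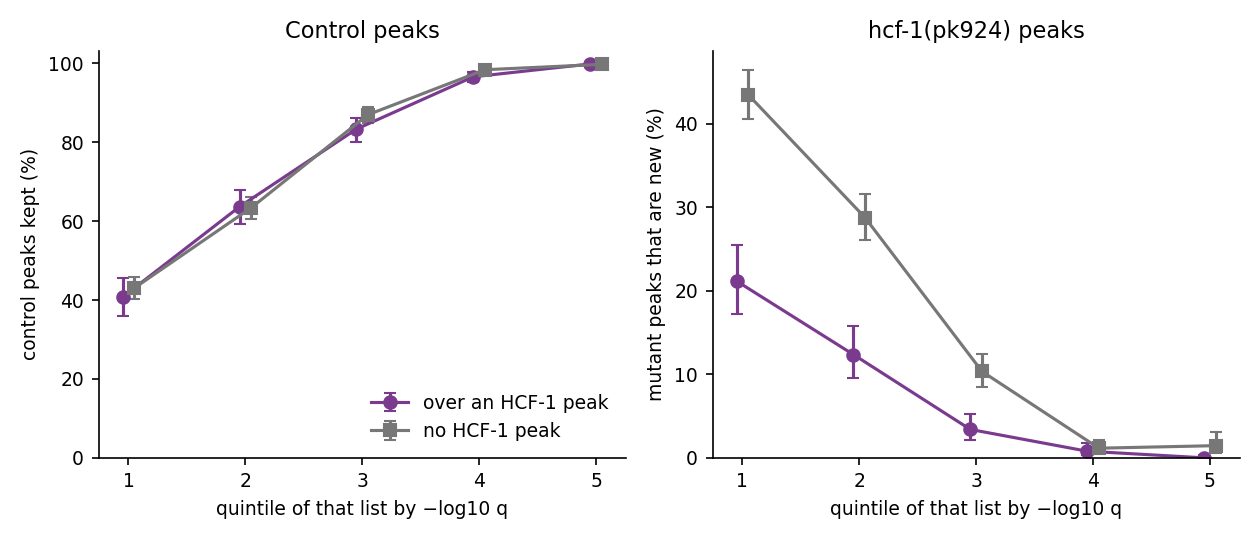
Left, share of control HDA-1 peaks kept (%), and right, share of hcf-1(pk924) HDA-1 peaks that are new (%), by quintile of the respective list by −log10 q (1 weakest), for peaks over an HCF-1 peak (circles) and without one (squares). Bars are exact 95% intervals. The kept shares of both kinds run together, while in the weakest quintile 21.2% of mutant peaks over an HCF-1 peak and 43.5% of the rest are new.

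The classes also differed in where their summits lay. A summit fell in a promoter window (2000 bp upstream to 500 bp downstream of the start of a protein-coding gene) for 58.5% of kept, 56.3% of absent and 48.2% of new peaks, where such windows hold 39.9% of the chromosomes. In coding exons lay 4.62% of kept, 10.2% of absent and 15.9% of new summits, and such exons make up 24.6% of the chromosomes. Among the weakest 2 quintiles of the mutant list, 16.7% of new and 8.70% of other summits lay in coding exons, and 48.5% and 56.1% in promoter windows. Absent and kept peaks of the weakest 2 control quintiles were closer, at 10.7% and 8.12% in coding exons.

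Sequence at the summits differed with the strength of the peak. The median content of G and C in such windows around summits was 43.6% at kept, 38.6% at absent and 39.6% at new summits, against 35.6% at gene starts and 34.7% over the chromosomes. The GA repeat was held by 27.01% of kept, 15.1% of absent and 15.04% of new windows, against 7.34% of windows at gene starts and 5.18% of all windows of this length. By control quintile the share went from 16.4% in the weakest to 37.2% in the strongest. In the weakest 2 quintiles it was 18.4% for kept and 15.3% for absent peaks, with overlapping intervals. The letters TGATAA, bound by GATA factors such as ELT-2 of the intestine, were in 10.5% of kept, 14.6% of absent and 14.0% of new windows, and in 9.35% of all windows. In the weakest 2 quintiles they were in 13.7% of kept and 14.9% of absent windows, with overlapping intervals. Windows that matched themselves at 80% or more at a shift of 10 to 50 bases made up 0.874% of kept, 0.763% of absent and 2.399% of new summits (26 of 1084), against 0.781% in a sample of windows over the chromosomes. In the weakest 2 quintiles of the mutant list this was 1.59% of new and 0.705% of other peaks, with overlapping intervals.

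The X chromosome kept more of its peaks than the autosomes did. On X 81.7% of 1801 control peaks were kept (79.9 to 83.5), and on the autosomes 76.6% of 6440 (75.6 to 77.6), with the 5 autosomes between 75.7% and 77.1%. The share was higher on X in each of the 5 quintiles, at 48.0% against 41.0% in the weakest, 72.0% against 60.6% in the second and 90.8% against 84.2% in the third. The intervals of the weakest quintile overlapped and those of the second and the third did not. On glp-1 RNAi the shares were 71.4% on X and 70.03% on the autosomes, and 51.6% and 48.4% in the second quintile, with overlapping intervals. X also held 102 control peaks per Mb, the autosomes 67.7 to 92.6, and 15.9% of its mutant peaks were new against 13.6% on the autosomes.

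**Figure D4:**
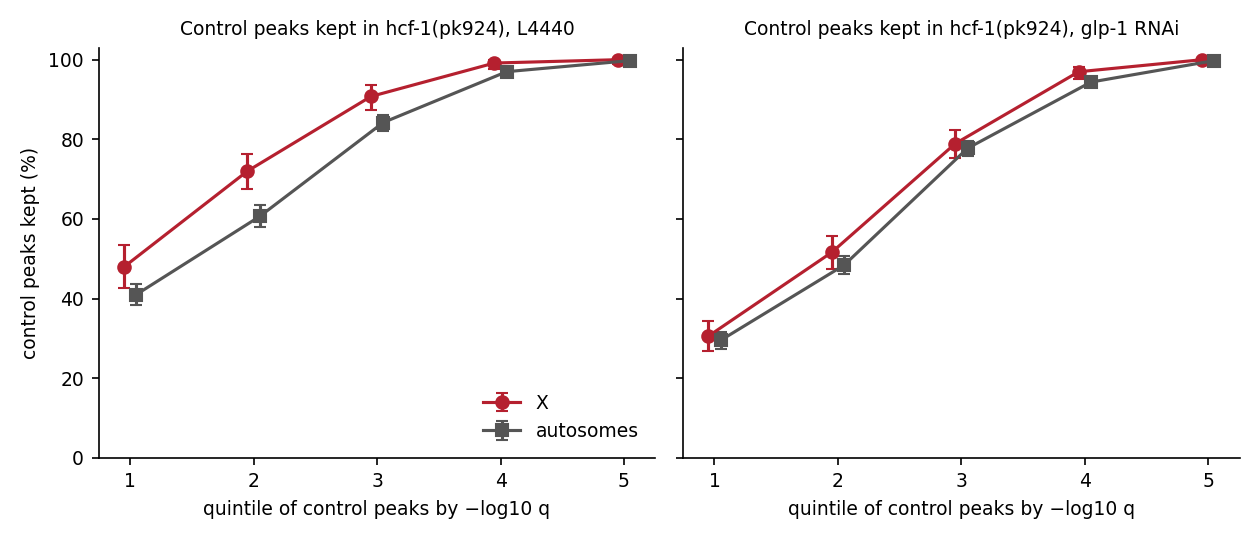
Share of control HDA-1 peaks kept in hcf-1(pk924) mutants (%) by quintile of the control list by −log10 q (1 weakest), on X (circles) and on the autosomes (squares), for worms on L4440 (left) and on glp-1 RNAi (right). Bars are exact 95% intervals. On L4440 the X values lie above the autosomal ones, with 72.0% against 60.6% in the second quintile.

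At the level of genes, 5391 of 19973 protein-coding genes had a control peak in their promoter window. Of these, 4467 kept at least 1 such peak in the mutant (82.9%, interval 81.8 to 83.9) and 924 had none of theirs kept, a background of 17.1%. Of the genes without a control promoter peak, 2.89% (421 of 14582) had a new one. The 924 genes are said below to have no peak left, although a new peak could still lie in their promoter window. The share with none left was lower for genes with a stronger best peak, at 57.9% in the weakest quintile, 14.5% in the third and 0.213% (3 of 1409) in the strongest. For each of 22 lists of genes, the share is therefore set beside that of all bound genes, both plain and with the quintiles weighted as in the list.

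**Figure D5:**
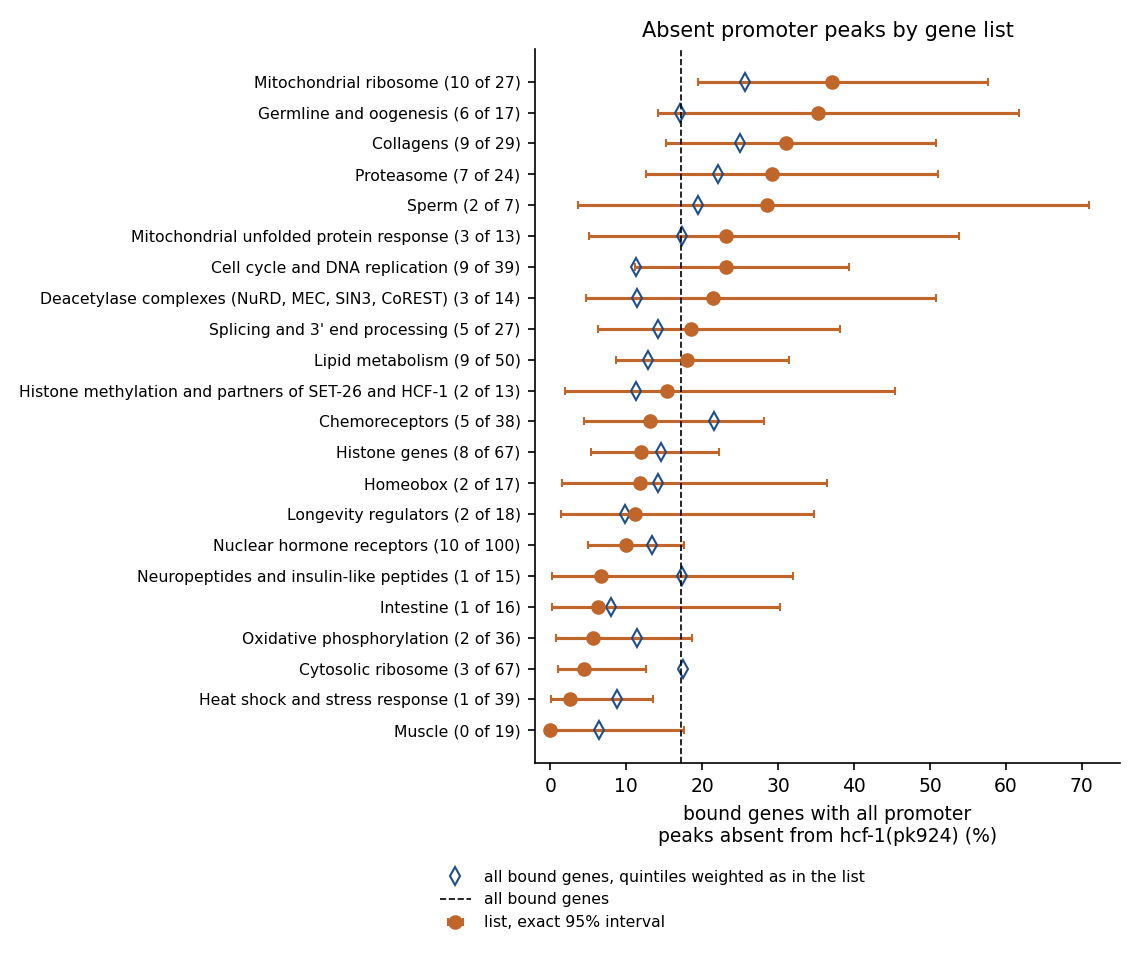
Share of bound genes (%) whose promoter peaks were all absent from hcf-1(pk924) mutants, for 22 gene lists (filled circles with exact 95% intervals; counts in brackets), with the share of all bound genes (dashed line, 17.1%) and that share with the quintiles of peak strength weighted as in the list (open diamonds). The cytosolic ribosome list is the one whose interval lies below its diamond, at 3 of 67. The intervals are not adjusted for the number of lists.

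Cytosolic ribosome genes had a lower share with no peak left than their weighted share, and for mitochondrial ribosome genes the interval held it. Of 67 bound cytosolic ribosomal protein genes 3 had no promoter peak left (4.48%, interval 0.933 to 12.5), against 17.5% for all bound genes weighted to the same quintiles. The intervals of the 22 lists were not adjusted for their number, and genes that share a peak were counted separately. The pair rpl-24.1 and rps-10 share a peak that was 4.18-fold in controls and 3.76-fold in mutants, and the peak of rpl-41.2 was 3.88 and 3.75. Absent were the peaks of rpl-32 (1.89), rpl-18 (1.55) and rpl-17 (1.35). Of 27 bound mitochondrial ribosome genes 10 had none left (37.0%, interval 19.4 to 57.6), where their weaker peaks (median −log10 q of 15.5, against 29.6 for all bound genes) put the weighted share at 25.6%, inside the interval. The difference between both lists was not tested. Kept were mrpl-15 (4.91 and 2.79), mrps-7 (3.86 and 2.93) and mrpl-35 (2.52 and 1.83), and absent were mrpl-28 (2.16), mrps-10 (1.92) and mrpl-55 (1.75).

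The shares of 4 further lists, of mitochondrial, lipid and stress genes, had intervals that held their weighted shares. Of 36 bound oxidative phosphorylation genes 34 kept a peak (5.56% with none left, weighted share 11.4%), among them ndub-8 of complex I (5.63 in controls, 4.95 in mutants), while the peaks of mev-1 of complex II (1.54) and ndub-3 (1.41) were absent. Of 13 bound genes of the mitochondrial unfolded protein response, the stress program that raises mitochondrial chaperones, 10 were kept, led by its transcription factor atfs-1 (5.12 and 3.87) and the demethylase gene jmjd-1.2 (4.71 and 4.07), and 3 were absent, namely the transporter gene haf-1 (1.89), the protease gene ymel-1 (1.60) and jmjd-3.1 (1.53), which is 23.1% against a weighted 17.4%. Of 50 bound lipid genes 9 had no peak left (18%, weighted 12.8%), among them the desaturase gene fat-5 (1.85), and the kept ones included the lipase gene atgl-1 (9.61 and 10.3) and the desaturase gene fat-2 (6.05 and 5.34). Of 39 bound heat shock and stress genes 1 had none left (2.56%, weighted 8.78%), gst-29 (1.42), and a peak over the small heat shock genes hsp-16.48 and hsp-16.1, which stand in near-identical copies that may share reads, was 14.7-fold in controls and 13.1-fold in mutants.

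The lists of chromatin and cell cycle genes also had intervals that held their weighted shares. Of 14 bound genes of the deacetylase complexes, mep-1 (9.74 and 8.65), lin-40 (7.44 and 5.83) and dcp-66 (4.32 and 3.47), all of NuRD or MEC, were among the 11 kept, and the peaks of sin-3 (2.70), rcor-1 of CoREST (1.87) and hda-1 itself (1.81) were absent (21.4%, weighted 11.3%). The list of histone methylation genes and partners of SET-26 and HCF-1 held 13 bound genes. Of these, ogt-1 (9.26 and 6.48), the demethylase gene rbr-2 (6.22 and 7.01) and set-16 (4.11 and 3.35) were kept. The peaks of set-2, an H3K4 methyltransferase (1.81), and its partner wdr-5.1 (1.77) were absent (15.4%, weighted 11.3%). Of 39 bound cell cycle and replication genes 9 had none left (23.1%, interval 11.1 to 39.3), against a weighted share of 11.2%. Absent were the Aurora B gene air-2 (1.96) and the helicase genes mcm-7 and mcm-5 (both 1.87), while cdc-42 (7.39 and 4.21), lin-35, the retinoblastoma counterpart (5.75 and 4.71), and cdc-7 (5.601 and 4.58) were kept.

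Of 51 genes in the germline and oogenesis list 17 had a control promoter peak and 6 of these had none left (35.3%, interval 14.2 to 61.7). The weighted share of all bound genes, 17.1%, lay inside the interval. Those with none left included the P granule helicase gene glh-1 (1.82), the oocyte RNA-binding gene pos-1 (1.77) and wago-1 (1.77). The glh-1 and pos-1 intervals had no peak in either glp-1 RNAi list, while the wago-1 interval held a peak in both (2.74 in controls, 1.87 in mutants). The recombinase gene spo-11 (5.44 and 4.95), the synapsis gene syp-4 (3.103 and 3.41) and fbf-1 (5.96 and 6.41) were kept. The spo-11 and syp-4 intervals held a peak in both glp-1 RNAi lists. The fbf-1 interval had no peak in glp-1 RNAi controls, 3.52-fold in hcf-1 mutants on that RNAi and 20.3-fold in set-26(tm2467) worms on L4440. Its implied local background was 2.01 times the median of control peaks. Over the same 3 lists the fold also rose at age-1 (2.28, 5.89 and 33.6), whose window was a repeat copy, and at nhr-241 (1.55, 5.91 and 24.4).

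Among tissue lists, 19 of 19 bound muscle genes kept their peaks (0 absent, which allows up to 17.6%, weighted share 6.38%), among them unc-112 (6.20 and 5.57), unc-60 (7.05 and 6.67) and pat-4 (3.68 and 3.12). The intestine list kept 15 of 16 (6.25% with none left, weighted 8.02%), with the peaks over the vitellogenin genes vit-6 (5.79 and 3.803), vit-2 (4.47 and 3.44) and vit-5 (4.002 and 2.34) lower in mutants, and a median log2 ratio over its kept genes of −0.36 beside −0.14 for all kept genes. Collagen genes had 9 of 29 with none left (31.0%, interval 15.3 to 50.8, weighted share 24.9%), among them col-85 (1.88) and bli-1 (1.75). Of 38 bound chemoreceptor genes 5 had none left (13.2%, interval 4.41 to 28.1, weighted 21.6%). Of the 1231 without a control peak 8 had a new one (0.650%), beside 2.89% of all such genes.

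At the loci of the factors themselves, the hcf-1 promoter kept its peak (1.54-fold in controls, 1.72-fold in mutants), as did set-26 (1.85 and 1.50). The hda-1 peak, 899 bp upstream of its start, was absent from the mutant list (1.81 in controls) but present in the mutants on glp-1 RNAi (1.65, against 2.03 in their controls), and set-9 had no HDA-1 peak in its promoter window.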

How the data were processed

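HDA-1 and H3 CUT&RUN samples of 2 replicates per genotype were grouped by their labels. The authors trimmed reads (Trim Galore 0.6.5), aligned them to WBcel235 (Bowtie2 2.4.3) and pooled replicates (SAMtools), by the submitters' notes. Peak calling (MACS2 2.1.4, q-value of 0.01, fragments of 200 bp) kept all duplicates and scaled the larger sample to the smaller, by the file headers. The deposited signal is the authors' summit pileup after scaling, and the fold is the authors' ratio of it to local background. The deposited −log10 q comes from the authors' test of the summit, and the −log10 p beside it was not used. Each of the 22 lists was deposited in a pair of formats with the same peaks.

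Several summits of 1 interval were counted as 1 peak with the values of the strongest. Overlaps, exact intervals and gene windows were computed in Python 3.11.15 (scipy, pandas) and tested on simulated data. An interval for a difference of shares was built from the bounds of both shares. Genes were those of Ensembl release 115, and a peak was given to the gene on each strand whose window it overlapped and whose start was nearest. A kept peak took the value of the overlapping mutant peak with the highest −log10 q. Depth per replicate is unknown, so that precision rests on merged tags. The study's own differential test needs the reads of each replicate and was not used.

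Genes named were the 8 strongest kept, absent and new peaks near a gene with a symbol, the 4 lowest and highest fold ratios among the strongest quintile of kept peaks, the loci of the factors, and from each list up to 3 kept, 3 absent and 2 new. For 7 motifs both strands were searched. Members, lists and rules were chosen with earlier results of these data known. Alternatives changed the overlap, the thresholds, the peaks compared, the gene window and the value compared.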

Additional observations from a re-analysis of the deposited data

How the results depend on the processing

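The kept share (77.8%) was 73.7% when mutant peaks had to cover at least 50% of the control peak, 75.7% with a mutant summit required inside it, 82.5% when peaks within 500 bp counted, 71.3% with a fold of at least 3 in both lists, 80.9% with an equal number of strongest peaks (7679), 86.2% for peaks also called against antibody background, and 81.2% for control peaks with a −log10 q of at least 5 and the mutant list whole. In the same order the new share (14.1%) was 16.7%, 17.2%, 10.8%, 6.53%, 16.5%, 6.68% and 11.5%. The ratio of peak numbers (0.930) was 0.774 with a fold of at least 3. The difference in kept share with minus without HCF-1 (12.1 points) was 14.0 under the 50% rule, 15.6 with the HCF-1 list of wild type worms, −1.47 as a mean within strata, and 0.260 within strata with the wild type HCF-1 list. The kept share of genes (82.9%) was 81.7% with a window of 500 bp upstream and 100 bp downstream, 79.7% under the 50% rule and 69.0% with a fold of at least 3. The median log2 fold ratio (−0.09) was −0.19 in the strongest quintile of control peaks. The other 10 of 33 alternatives stayed within the interval of the value reported. Leaving out MtDNA and peaks of high local background, 1-sided thresholds, the within-strata mean with the wild type HCF-1 list, the inner summit and the mutant quintile were chosen after seeing the data. No paired analysis was possible because the lists were called on merged replicates, and no replicate could be left out. Whether weak absent peaks were lost or only missed the threshold cannot be told from 1 list a genotype. The cause of each shift was not tested.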

Other observations

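Peaks on mitochondrial DNA, which carries no histones, were called in both lists. All 12 control peaks there were kept, the mutant list held 9, and the median log2 ratio of mutant to control fold was 0.35, with none of the 12 below 0, beside −0.12 to −0.07 for the median on each nuclear chromosome. The summit pileup gave 0.47.

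Among the shorter motifs, the letters CCGGAA of ETS factors were in 1.80% of kept, 3.22% of absent and 2.12% of new summit windows, against 4.27% of all windows of that length. The forkhead letters GTAAACA were in 2.03%, 1.42% and 2.49% (1.12% of all windows), the E-box CACGTG in 2.83%, 2.72% and 2.95% (1.67%), the GC box CCCGCCC in 1.58%, 1.04% and 0.830% (0.343%), and the E2F letters TTTCCCGC in 0.656%, 0.763% and 0.554% (0.575%). In the weakest 2 quintiles of the control list, CCGGAA was in 2.06% of kept and 3.28% of absent windows, with overlapping intervals.

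Of control HDA-1 peaks over a SET-26 peak of control worms 85.0% were kept, and of the others 69.5%. The difference of 15.6 points was 3.12 points in the weakest quintile and 0.259 in the strongest, with intervals that included 0 in each of the 5 quintiles.

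Bound genes with no peak kept, in the lists not yet described, were as follows. The weighted share is that of all bound genes at the list's peak strengths, and it lay inside the interval of each of these lists. Homeobox genes had 2 of 17 (11.8%, weighted 14.2%), among them ceh-60 at a control fold of 1.91, and nuclear hormone receptors 10 of 100 (weighted 13.4%), with nhr-176 at 1.95. Longevity regulators had 2 of 18 (11.1%, weighted 9.86%), with pqm-1 at 1.46, and neuropeptide and insulin-like genes 1 of 15 (6.67%, weighted 17.4%), nlp-40 at 2.05. Histone genes had 8 of 67 (11.9%, weighted 14.6%), with his-7 and his-8 under a shared peak (1.84), and near-identical histone copies can share reads. The proteasome list had 7 of 24 (29.2%, weighted 22.1%), with pas-3 at 2.04, splicing and 3' end processing 5 of 27 (18.5%, weighted 14.2%), with rnp-8 at 2.06, and sperm genes 2 of 7 (28.6%, weighted 19.4%), with ssp-10 at 2.24.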
